A study of Mus musculus with 6 samples.

Results

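The genes described here are the antioxidant and glutathione genes, a set of 37 listed genes that encode superoxide dismutases, catalase, peroxidases, glutathione enzymes, the thioredoxin system and the Nrf2 axis. They were chosen by function, not by their values. A gene was measured where at least 1 probe set of the array was annotated to that gene alone, and its brightest probe set, by mean log2 over the 6 arrays, stood for it. This gave 33 genes of 18193 on the array. All 5 probe sets of Prdx1 are shared with Gm21399, and Prdx1, Prdx5, Prdx6 and G6pdx are not analysed here.

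The cells came from wild-type C57BL/6 mouse and were sorted by flow cytometry into LSK cells (lineage-low, Sca1+, Kit+), which include the haematopoietic stem cells, and LK cells (lineage-low, Sca1-, Kit+), which are committed progenitors. No treatment or engineered allele is named for either population, and the animals' ages are not given in the sources used here. Each population had 3 Affymetrix arrays, hybridised with linearly amplified RNA, and this small number limits the precision of every value. In such bulk samples, fewer cells of a type and less RNA per cell cannot be told apart.

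Cells that respire make superoxide. Superoxide dismutases turn it into hydrogen peroxide, and catalase, glutathione peroxidases and peroxiredoxins remove the peroxide. Glutathione and thioredoxin donate the electrons for this, and their reductases restore them with NADPH. The transcription factor Nrf2, encoded by Nfe2l2, raises many of these genes through antioxidant response elements, and Keap1 keeps it low in unstressed cells. Blood stem cells are known to keep low levels of reactive oxygen species and to lose quiescence when these rise.

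Marker genes placed the arrays as labelled. Of 10 measured genes of multipotent cells, 8 were higher in LSK and 0 lower. Of 12 measured erythroid genes, 6 were lower in LSK and 0 higher, as were 6 of 13 granulocyte and monocyte genes, and 2 of 7 mast cell and basophil genes. The granulocyte and monocyte genes did not all lean one way: 4 of the 13 lay above 0, and Lyz2 and Camp were higher in LSK with the replicate block. No B-cell gene (7 measured) and no gene of T or NK cells (6 measured) was called, and 4 of the B-cell genes, Pax5 and Cd79a among them, and all 6 of the T-cell and NK-cell genes had log2 means under 4 in both populations. Of the other B-cell genes, Cd79b was at 4.19 in LSK and 4.20 in LK, Igll1 at 3.83 and 4.11, and Ebf1 at 4.19 and 2.98, with 5.76 on LSK replicate 2. The 3' control signal exceeded the 5' one, averaged for Actb and Gapdh on the log2 scale, by more where RNA is degraded or amplified short, and this excess lay between 2.32 and 3.30 in LSK and between 3.26 and 3.94 in LK. The upper quartile of intensity was lower on the replicate 2 arrays (21.96 in LSK, 20.7 in LK) than on the other 4 (24.2 to 25.7). The part of these measures in the results below was not tested. Some fits below hold the 3' excess or leave out the arrays numbered 2. Of the LSK arrays only replicate 3 lay within the LK range of the 3' excess. With 6 arrays, a fit that holds this excess therefore cannot well separate it from the population.

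Between the populations, 24 of the 33 antioxidant genes had the higher mean in LK. The 3 largest differences the other way belonged to Txnip, Srxn1 and Txnrd1, though 5 of the 7 thioredoxin and glutaredoxin genes lay below 0. Txnip, an inhibitor of thioredoxin, was 4.91-fold higher in LSK, and Nfe2l2 was 2.11-fold lower. The other 31 members did not pass an adjusted p of 0.05 (limma, two-sided, Benjamini-Hochberg over all 18193 genes). The 1 member higher in LSK is 3.03% of those measured, where 3.84% of all genes were higher, and the 1 member lower in LSK is likewise 3.03%, where 2.89% of all genes were lower (6.73% in either direction), so the number of calls is close to that of the whole array. The median log2 difference (LSK minus LK) was -0.42 over the 33 members and -0.02 over all genes. It lay below 0 in 24 members (72.7%) and in 53.4% of all genes. The arrays of the populations did not overlap in 4 members with LSK above (12.1%, against 13.2% of all genes) and in 8 with LK above (24.2%, against 14.8%).

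With the replicate number of the labels as a block, which uses the differences between same-numbered arrays, 2 members were higher and 6 lower in LSK. These were Txnip and Srxn1, and Nfe2l2, Gclc, Gstm1, Gstm5, Gsto1 and Prdx3. They are 6.06% and 18.2% of the members, where 7.02% and 7.36% of all genes were called in this fit. Of the 6 that the block added, Prdx3 passed in 1 of 17 alternatives, the block itself. Counting the block in the same way, Gstm1 and Gsto1 passed in 5 of 17, Gstm5 in 4 of 17 and Gclc in 3 of 17. Srxn1 passed in 4 of the 16 that gave a value, again with the block among them. In the fit with the 3' excess the lowest adjusted p among the 33 was 0.17, for Txnip. The median difference of the members was -0.15, -0.34 and -0.42 within the replicate 1, 2 and 3 arrays.

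**Figure D1:**
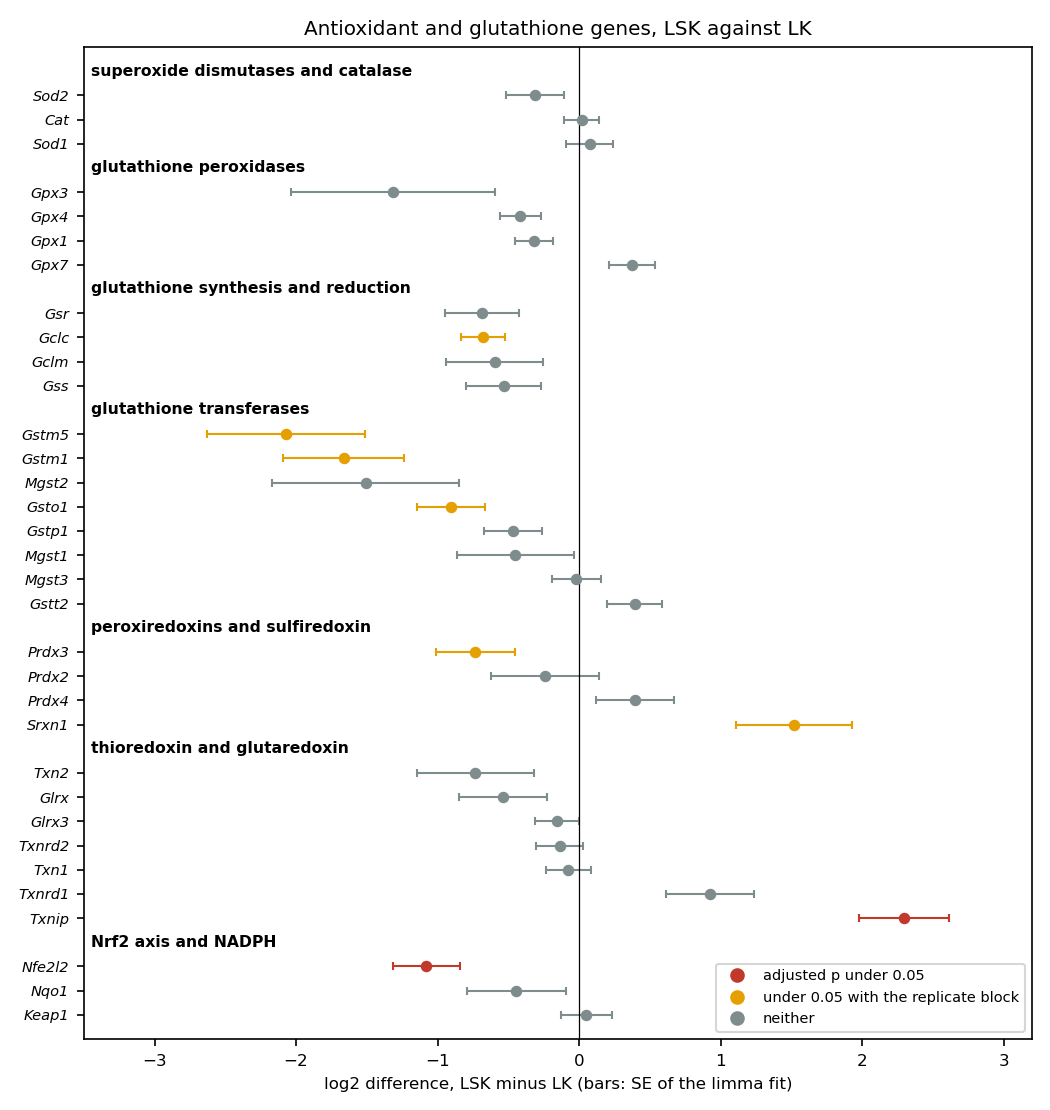
Log2 difference in intensity (LSK minus LK) of the 33 measured antioxidant and glutathione genes, grouped by role, with the SE of the limma fit from 3 arrays of each population. Txnip and Nfe2l2 passed the threshold, 6 further genes passed it with the replicate block, and all 4 genes of glutathione synthesis and reduction lay below 0. Of these 4, Gss was dim (log2 means of 3.53 in LSK and 4.07 in LK).

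Txnip binds reduced thioredoxin and blocks it, and also limits glucose uptake. Its log2 intensity was 10.51, 10.78 and 9.72 on the LSK arrays and 8.46, 7.77 and 7.89 on the LK arrays. Every LSK array thus lay above every LK array. The means of 10.34 ± 0.55 and 8.04 ± 0.37 (SD, n = 3 each) gave a log2 difference of 2.30 (SE 0.32, adjusted p = 0.0123). The second Txnip probe set differed the same way (log2 difference 1.20), at a lower intensity. Txnip did not pass without LSK replicate 1 (adjusted p = 0.0597), without LK replicate 3 (0.0613) or without both arrays numbered 2 (0.0615). In a fit that also held the 3' excess, the log2 difference was 1.49 and the adjusted p 0.17.

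The upstream sequence of Txnip is shown because this gene had the largest difference among the members. It holds a known carbohydrate response element, which the glucose-sensing factors ChREBP and MondoA bind. The stretch runs from position -130 to -51 from the transcription start (chr3:96557827-96557906, plus strand, RefSeq, GRCm38.p6), and the capitals mark a FoxO motif (GTAAACA) and a pair of CACGNG boxes 5 bases apart.
Txnip: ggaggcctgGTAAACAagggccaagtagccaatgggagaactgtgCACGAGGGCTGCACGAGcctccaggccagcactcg
On either strand, the pair of boxes occurred in 16 of 32851 RefSeq promoter windows of 300 bases (0.0487%) and the FoxO motif in 3.65%. Among the 30 members with a window, Txnip was the only one with either motif. Members are counted by gene, where any window matches, and the percentages by single windows. The E-box CACGTG, found in 7.15% of windows, occurred in 1 member, Prdx4. These are letter matches, and the arrays measured no binding.

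The other thioredoxin genes did not pass the threshold. Txnrd1, the cytosolic reductase that recharges thioredoxin, had log2 intensities of 10.12, 9.55 and 9.33 in LSK and 9.03, 8.16 and 9.03 in LK. The populations did not overlap, and the log2 difference was 0.92 (SE 0.31, adjusted p = 0.14, and 0.056 with the block), and 0.24 in the fit with the 3' excess. Txn1, cytosolic thioredoxin itself, had means of 11.13 ± 0.13 in LSK and 11.21 ± 0.22 in LK (SD, n = 3). Its difference of -0.08 had a 95% confidence interval from -0.45 to 0.30, so a change of 1.5-fold or more in either direction lay outside that interval. Mitochondrial Txn2 had log2 intensities of 4.90, 4.31 and 4.77 in LSK against 6.12, 4.48 and 5.58 in LK, and the arrays overlapped (difference -0.73, adjusted p = 0.369, and -0.37 without LK replicate 1). The glutaredoxin gene Glrx, whose protein reduces glutathionylated proteins, had a difference of -0.54 (adjusted p = 0.38). Txnrd2, the mitochondrial reductase, and Glrx3 had log2 means under 4 in both populations, so their differences (-0.14 and -0.16) say little. The remaining 4 probe sets of Glrx3 are shared with another gene and were not used.

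Nfe2l2 was lower in LSK. Its log2 intensity was 6.25, 6.55 and 6.82 in LSK and 8.03, 7.34 and 7.48 in LK, so the populations did not overlap. The log2 difference was -1.08 (SE 0.24, adjusted p = 0.0453, and 0.0436 with the block), and LK was higher in 3 of 3 same-numbered pairs. This call lies close to the threshold and was lost without any single array (adjusted p from 0.0501 without LSK replicate 3 to 0.14 without LSK replicate 1), without both arrays numbered 2 (0.104) and in the fit with the 3' excess (0.499). The second Nfe2l2 probe set, under a log2 of 4 in both populations, had a difference of 0.37, and with the mean of both the difference was -0.35 (adjusted p = 0.375). Keap1, the adaptor that sends Nrf2 to degradation, had means of 4.51 ± 0.30 and 4.46 ± 0.11 (SD, n = 3) and a difference of 0.05 (95% confidence interval from -0.38 to 0.48). Nqo1, a quinone reductase and classic Nrf2 target, had log2 intensities of 6.94, 6.26 and 6.35 in LSK and 7.63, 6.36 and 6.89 in LK, which overlap (difference -0.44, adjusted p = 0.528). Its difference was -0.11 without LK replicate 1 and -1.02 in the fit with the 3' excess, and passed in neither.

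The core of the antioxidant response element, TGACNNNGC on either strand, was found in the windows of 7 of 30 members and in 12.4% of all windows. A member counts where any of its windows matches, while the percentage is of single windows, so these are not on the same scale. The members that hold it differed in direction: Srxn1 (log2 difference 1.52) and Txnrd1 (0.92) leaned towards LSK, Sod1 (0.07) lay near 0, and Mgst1 (-0.45), Gclm (-0.60), Nfe2l2 (-1.08) and Gstm5 (-2.07) leaned towards LK. The stretches around the match in 4 of them are shown, so that members on both sides of 0 can be compared. Capitals mark the match, and all come from RefSeq (GRCm38.p6). They lie at chr10:82859086-82859155 (plus strand) for Txnrd1, chr3:122245397-122245466 (plus strand) for Gclm, chr2:75704844-75704913 (minus strand) for Nfe2l2 and chr3:107895774-107895843 (plus strand) for Gstm5.
Txnrd1: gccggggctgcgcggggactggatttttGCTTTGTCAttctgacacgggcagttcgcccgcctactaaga
Gclm: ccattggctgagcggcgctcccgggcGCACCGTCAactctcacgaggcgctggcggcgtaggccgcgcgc
Nfe2l2: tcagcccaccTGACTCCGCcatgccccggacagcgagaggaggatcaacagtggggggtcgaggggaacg
Gstm5: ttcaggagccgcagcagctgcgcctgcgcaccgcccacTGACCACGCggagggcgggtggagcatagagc
The leftmost base of the match lies at position -42 in Gstm5, -92 in Txnrd1, -134 in Gclm and -240 in Nfe2l2, and at 29 after the start in Srxn1. In Txnrd1, Gclm and Srxn1 it reads on the opposite strand.

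Srxn1 encodes sulfiredoxin, which repairs peroxiredoxins that peroxide has overoxidised. Its log2 intensity was 5.40, 4.77 and 3.99 in LSK and 3.79, 2.78 and 3.02 in LK. All LSK arrays were higher, and the LK values lay around the median of all probe sets on the arrays (3.03). The log2 difference was 1.52 (SE 0.41), with an adjusted p of 0.0791 and of 0.0139 with the block. It was 1.88 without LSK replicate 3 (adjusted p = 0.04), 1.18 without LSK replicate 1 (0.192) and 0.50 in the fit with the 3' excess (0.812). Of the 4 Srxn1 probe sets, 2 stayed under a log2 of 4 in both populations, and the other had a difference of 0.78.

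The peroxiredoxins, which reduce peroxide with electrons from thioredoxin, lay on both sides of 0. Prdx3, the mitochondrial member, had log2 intensities of 7.57, 6.91 and 7.54 in LSK and 8.56, 7.69 and 7.97 in LK. The populations did not overlap, and the difference of -0.73 (SE 0.28) passed only with the block (adjusted p = 0.188 without it, 0.0389 with it). Prdx4, the member of the endoplasmic reticulum, lay on the other side, with means of 8.82 ± 0.28 in LSK and 8.43 ± 0.50 in LK (SD, n = 3; difference 0.39, adjusted p = 0.479). Prdx2, abundant in red cells, had 9.44, 8.71 and 8.93 in LSK against 10.07, 8.65 and 9.08 in LK. These arrays overlap, and its probe sets differed in opposite directions (-0.24 and 0.39), neither past the threshold.

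In glutathione synthesis and reduction all 4 measured genes lay below 0, with a median log2 difference of -0.64, but none passed over all genes in the fit without the block. Gclc encodes the catalytic subunit of the enzyme for the first and limiting step. It had log2 intensities of 5.74, 5.72 and 5.58 in LSK and 6.62, 6.18 and 6.29 in LK. Every LK array was higher, and the difference of -0.68 (SE 0.16) lay just outside the threshold (adjusted p = 0.0526, 0.0364 with the block, and 0.0664 to 0.142 on leaving out 1 array). A second, dim Gclc probe set had a difference of -0.05. Gclm, the modifier subunit, had a difference of -0.60 (adjusted p = 0.376), which was -0.27 without LK replicate 1. Gss, which completes glutathione, had a difference of -0.53 (adjusted p = 0.298). Gss was dim, with log2 means of 3.53 in LSK and 4.07 in LK, so its difference says little. The reductase Gsr had log2 intensities of 10.57, 10.74 and 10.87 in LSK and 10.84, 11.62 and 11.79 in LK. LK replicate 1 lay within the LSK range, and the difference was -0.69 (adjusted p = 0.182). It was -0.98 without that array (0.0377) and -0.50 without LK replicate 3 (0.423), and -0.36 in the fit with the 3' excess (0.917).

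Glutathione transferases, which couple glutathione to reactive compounds, held the largest differences towards LK, and 7 of 8 lay below 0. Gstm5 had log2 intensities of 6.34, 4.89 and 5.60 in LSK and 8.80, 6.93 and 7.33 in LK. The populations did not overlap, and the difference (LSK minus LK) was -2.46, -2.04 and -1.72 within replicates 1, 2 and 3, and -2.07 over all (SE 0.56). This 4.20-fold difference had an adjusted p of 0.0784, and of 0.00457 with the block. On leaving out 1 array the Gstm5 difference ran from -2.45 without LK replicate 2 (adjusted p = 0.0793) to -1.51 without LK replicate 1 (0.125). In the fit with the 3' excess it was -2.64 (0.42). Gstm1, a transferase of the same class, had 7.43, 6.77 and 7.76 in LSK and 8.16, 9.11 and 9.69 in LK. It was 3.17-fold higher in LK (log2 difference -1.66, SE 0.43, adjusted p = 0.0688, and 0.0269 with the block), and all 4 of its probe sets differed that way. On leaving out 1 array the Gstm1 difference ran from -2.08 without LK replicate 1 (adjusted p = 0.036) to -1.31 without LK replicate 3 (0.182). In the fit with the 3' excess it was -1.05 (0.709). The probe set that stands for Gstm1 carries a suffix for possible cross-hybridisation, so signal of related class mu transcripts cannot be separated from it. The brighter of its unmarked probe sets gave a difference of -1.65.

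Gsto1, an omega class enzyme that reduces dehydroascorbate, had log2 intensities of 8.52, 8.42 and 9.26 in LSK and 9.61, 9.51 and 9.79 in LK. It was higher on every LK array (difference -0.90, adjusted p = 0.0778, and 0.0255 with the block). The adjusted p was 0.0184 without LSK replicate 3, the highest LSK array, and 0.121 to 0.234 without any of the other 5. In the fit with the 3' excess the difference was -0.46 (0.778). The probe set that stands for Gsto1 carries the same suffix as that of Gstm1, as do those of Gpx4 and Gss. The unmarked Gsto1 probe set had a difference of -0.78 (adjusted p = 0.147 in the limma fit over all probe sets). The microsomal Mgst2 had 6.01, 5.70 and 6.87 in LSK and 6.18, 8.26 and 8.66 in LK. LK replicate 1 lay among the LSK arrays, and the difference of -1.51 did not pass (adjusted p = 0.243), and without that array it was -2.27 (0.0358). Leaving out LK replicate 3 gave -1.03 (0.515), leaving out both arrays numbered 2 gave -0.98 (0.626), and it was -0.33 in the fit with the 3' excess (0.985). Of the others, Gstp1 had a difference of -0.47 and Mgst1 of -0.45 (adjusted p = 0.243 and 0.595), that of Mgst1 ranging from -0.81 without LK replicate 1 to -0.11 without LK replicate 3, and Gstt2 (0.39) and Mgst3 (-0.02) had log2 means under 4 in both populations.

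**Figure D2:**
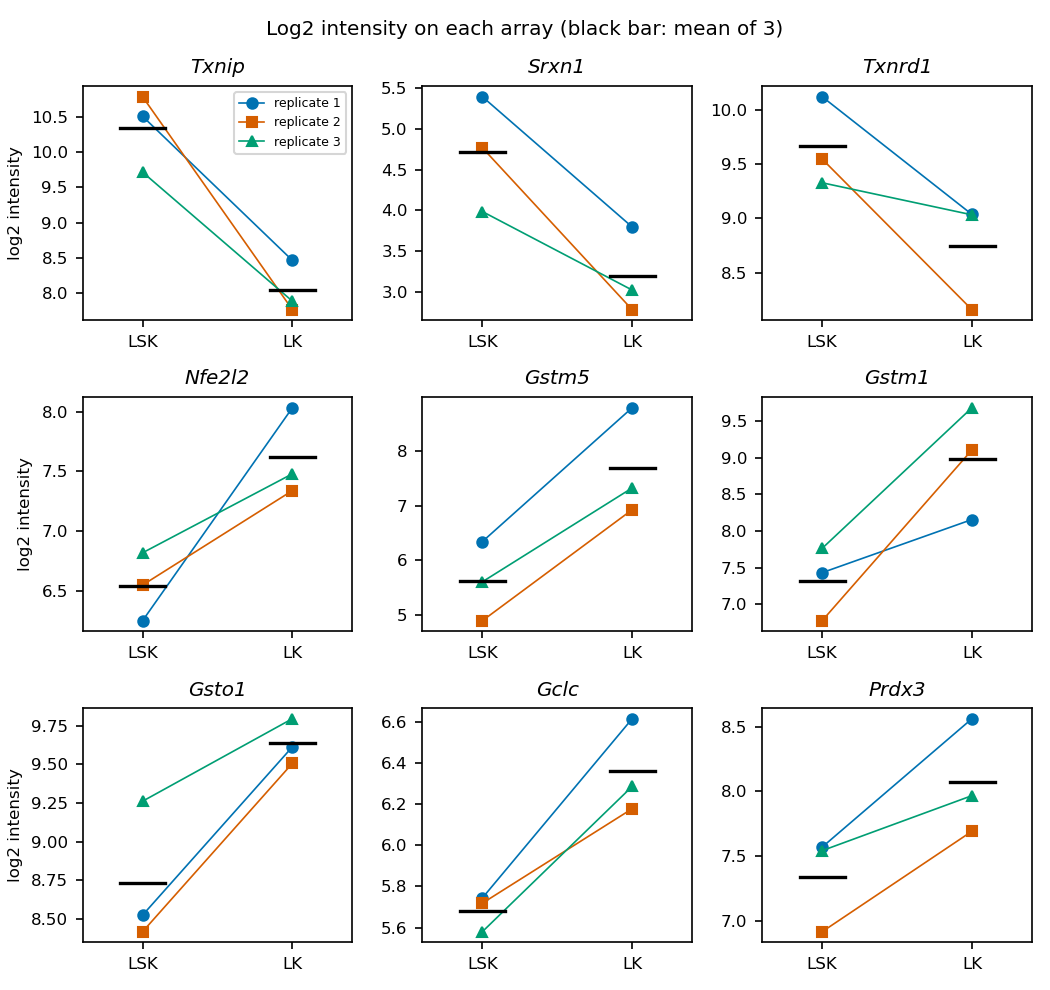
Log2 intensity of 9 members on each of the 3 LSK and 3 LK arrays, with lines joining arrays of the same replicate number and black bars for the means. The y axes differ between panels and do not start at 0. The 9 are the members called with or without the replicate block and Txnrd1, chosen after their values were seen. In all 9 panels the LSK and LK arrays do not overlap: Txnip, Srxn1 and Txnrd1 were higher on the LSK arrays, and the other 6 on the LK arrays. Over all 33 members, LSK lay above without overlap in 4 (12.1%, against 13.2% of all genes) and LK in 8 (24.2%, against 14.8%).

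Glutathione peroxidases differed little, apart from Gpx3. Gpx1, the main cytosolic selenoenzyme, had log2 intensities of 11.40, 11.23 and 11.40 in LSK and 11.56, 11.60 and 11.81 in LK. All LK arrays were higher, but by only 1.25-fold (adjusted p = 0.229). Gpx4, which protects membrane lipids and guards against ferroptosis, had 7.84, 7.57 and 7.65 against 8.24, 7.95 and 8.13, again without overlap (1.33-fold, adjusted p = 0.147). Gpx3, the secreted form, stood at 2.79, 3.07 and 3.11 in LSK and at 2.93, 3.96 and 6.04 in LK. LK replicate 3 was the highest by far, and the difference of -1.32 (adjusted p = 0.352) was -0.45 without it. Gpx7 had log2 means under 4 in both populations (difference 0.38).

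Of the first enzymes of the pathway, none passed the threshold. Sod1, the cytosolic dismutase, had log2 intensities of 12.90, 12.62 and 12.70 in LSK and 12.88, 12.40 and 12.72 in LK (difference 0.07, 95% confidence interval from -0.33 to 0.47). Cat, the peroxisomal enzyme that splits peroxide, had 10.31, 10.41 and 10.39 against 10.36, 10.46 and 10.23 (difference 0.02, interval from -0.28 to 0.32). In both genes the arrays overlapped, and the intervals leave out a change of 1.5-fold or more in either direction. Sod2, the mitochondrial dismutase, had means of 8.97 ± 0.18 and 9.28 ± 0.34 (SD, n = 3; difference -0.31, adjusted p = 0.443). Its 3 other probe sets had differences of -1.05, -0.95 and -0.11, so for this gene the size depended on the probe set. One dim Sod1 probe set had a difference of 0.99, and the other 4 lay between -0.21 and 0.07.

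Within LK the members fell into different patterns. Of the 33, 10 (30.3%) had a range of at least 1 on the log2 scale over the 3 LK arrays and 5 (15.2%) over the LSK arrays, where 11.5% and 11.01% of all genes did. Among genes with a log2 mean of at least 4 in either population, the LK share was 35.7% for the members and 21.5% for all. The LSK share among them was 17.9% for the members, below the 21.5% for all. Of the 10 members with this LK range, 6 (Gstm5, Prdx2, Gclm, Srxn1, Nqo1 and Txn2) were highest on LK replicate 1 and 4 (Gstm1, Mgst1, Mgst2 and Gpx3) on LK replicate 3. Of the 2090 genes of the whole array with this LK range, at any mean, 1103 were highest on LK replicate 1, 486 on replicate 2 and 501 on replicate 3. Of the 1712 with a log2 mean of at least 4 in either population, these counts were 980, 294 and 438. The widest members were Gpx3, with a range of 3.12, and Mgst2, with 2.48. Marker lists varied over the same arrays. The summed intensity of the 12 erythroid genes was 13153 on LK replicate 1 against 6808 and 6585 on replicates 2 and 3, and 3117 to 3398 in LSK. That of the 13 granulocyte and monocyte genes was 24988, 36381 and 48028 on LK replicates 1, 2 and 3, and 18646 to 28022 in LSK. Megakaryocyte markers (482, 218 and 355) and mast cell and basophil markers (1098, 771 and 1011) were also highest on LK replicate 1, against 181 to 221 and 477 to 559 in LSK. The mast cell and basophil list includes Kit, on which both populations were sorted. Kit was at a log2 of 8.86, 8.67 and 8.11 in LSK and 7.94, 7.95 and 7.33 in LK. In the same list Cpa3 was highest on LK replicate 1 (9.19), but Hdc on LK replicate 3 (8.50). Among erythroid genes Klf1 was at 8.53, 7.43 and 7.22 on the LK arrays and Aqp1 at 7.97, 4.60 and 5.66, while Hba-a1, Alas2 and Slc4a1 were under a log2 of 4 on all 6 arrays. Among granulocyte genes Elane was at 10.27, 11.36 and 12.03 and Prtn3 at 10.42, 11.27 and 12.01. The part of these cell types in the members' values was not tested.

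**Figure D3:**
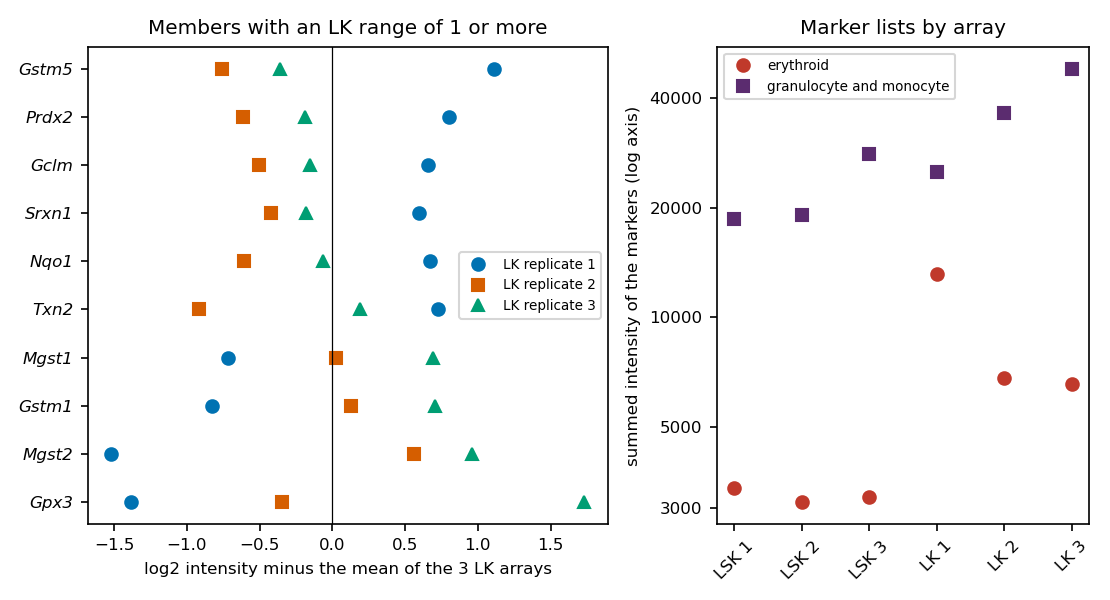
Left, log2 intensity of the 10 members with an LK range of at least 1, as the deviation of each LK array from the mean of the 3. Right, summed intensity (log axis) of the erythroid and the granulocyte and monocyte markers on each array. The upper 6 members were highest on LK replicate 1, where the erythroid sum was 13153, and the lower 4 on LK replicate 3, where the granulocyte and monocyte sum was 48028. A linear sum rests most on its brightest genes, such as Car2 among the erythroid markers in LSK.

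A wider set of redox genes, listed by function, was read in the same fit. Of 134 measured, 4 were higher and 8 lower in LSK, which are 2.99% and 5.97% beside the 3.84% and 2.89% of all genes. With the block 14 were higher and 24 lower (10.4% and 17.9%, beside 7.02% and 7.36% of all genes). The NADPH supply list had the largest share towards LK. This list also holds enzymes of the pentose phosphate pathway that make no NADPH themselves. Among its 19 measured genes, 4 were lower and 0 higher in LSK (9 and 0 with the block), and 15 did not pass. The median log2 difference was -0.57, with 14 genes below 0 and 5 above it. Mthfd2, a mitochondrial folate enzyme, was 2.90-fold lower in LSK (log2 5.71 ± 0.43 against 7.25 ± 0.13, adjusted p = 0.015). Pgd, the second dehydrogenase of the pentose phosphate pathway, was 2.56-fold lower (9.60 ± 0.46 against 10.96 ± 0.39, SD, n = 3, adjusted p = 0.0447). The other calls were Mthfd1 (2.36-fold) and Rpia (2.02-fold), an isomerase of the pentose phosphate pathway that makes no NADPH itself.

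Among 28 other peroxidases and thiol oxidoreductases, 2 were higher and 1 lower in LSK (4 and 6 with the block). Msrb3, which repairs oxidised methionine, was at 7.22 ± 0.73 in LSK and 2.78 ± 0.32 in LK (SD, n = 3), below the median of all probe sets (adjusted p = 0.00274). Sesn3, a sestrin that FoxO factors induce, was 3.02-fold higher (adjusted p = 0.0225), and Pdia6, a disulfide isomerase of the endoplasmic reticulum, 3.36-fold lower (adjusted p = 0.00664). Of 22 Nrf2 partners, regulators and classic targets, Bach2, a repressor that competes at related DNA elements, was 2.62-fold higher in LSK (adjusted p = 0.0332). Mafg, a small Maf partner of Nrf2, was 2.34-fold lower (adjusted p = 0.0433), and 20 did not pass. This list leaned towards LSK, with 16 of 22 genes above 0 and a median of 0.23. In 10 of them every LSK array lay above every LK array (45.5%, beside 13.2% of all genes), and in 1 the reverse, and with the block 3 were higher and 1 lower. However, 10 of the 22 had log2 means under 4 in both populations. Osgin1, Maff, Hmox1, Rbx1 and Akr1b8, all with LSK above, are among these dim genes, so their differences say little. Of 16 genes of selenoprotein synthesis and selenoproteins, Selenop, the selenium carrier, was 1.98-fold higher (adjusted p = 0.0103). Scly and Selenos were 2.82-fold and 2.42-fold lower (adjusted p = 0.0291 and 0.0169), and 13 did not pass.

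The remaining lists gave no call over all genes. These were 19 other glutathione transferases (median 0.06, 3 higher with the block), 21 genes of glutathione turnover and cystine supply (median -0.27, 1 higher and 4 lower with the block) and 9 genes of the NADPH oxidase (median -0.07, 0 with the block). The transporter Abcc4 had the largest difference among them (log2 -2.24, adjusted p = 0.0541). The other transferases lay on both sides of 0, with Gsta4 (1.47) and Gstt1 (1.38) above it.

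**Figure D4:**
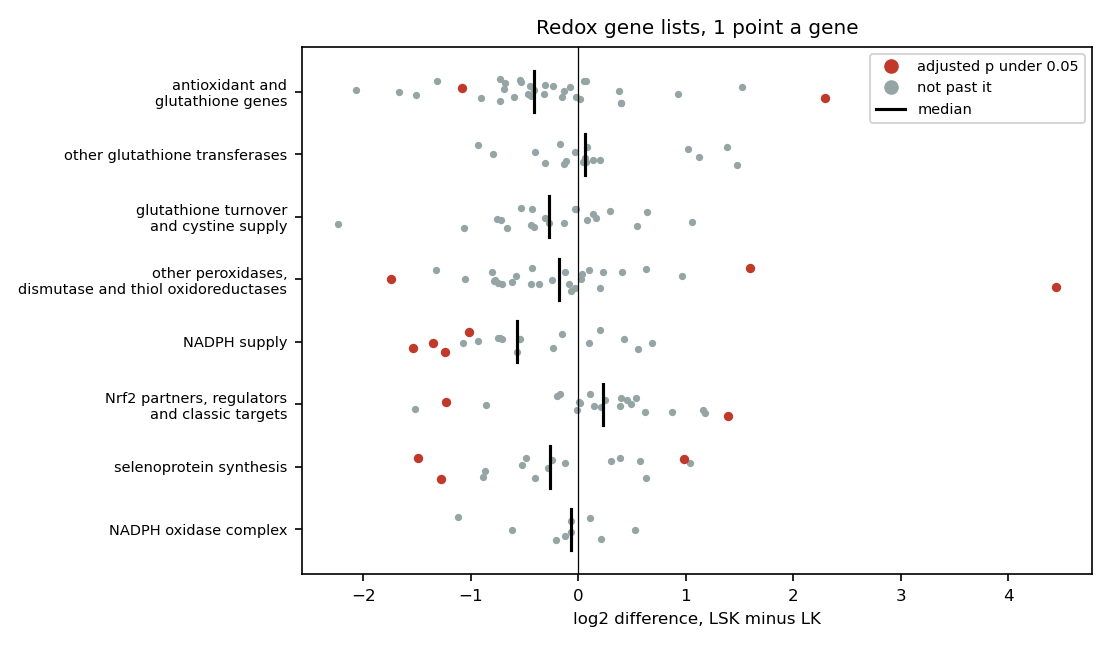
Log2 difference (LSK minus LK) of the 33 antioxidant and glutathione genes and of 7 wider redox lists, 1 point a gene, with the median of each list as a black line. Red points passed an adjusted p of 0.05. All 4 calls in the NADPH supply list lie below 0, and the point farthest to the right is Msrb3.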

How the data were processed

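The authors deposited 1 linear intensity per probe set and array; the submitters' processing notes name RMA, affy and R 2.11.0. RMA usually gives all arrays 1 distribution, which hides a general shift. The deposited arrays did not share exactly 1 distribution: their median intensity ran from 7.88 on LK replicate 1 to 8.49 on LK replicate 2. With quantile normalisation again, 1710 genes passed the threshold, against 1225. Intensities were turned into log2 values. Of 45037 non-control probe sets, 34945 carried 1 gene symbol, 932 several and 9160 had no entry in the platform table; older symbols were replaced by RefSeq's through the Entrez ID. LSK and LK were compared over all genes with limma 3.58.1 (R 4.3.3, lmFit and eBayes), with a fit over all probe sets for probe sets of 1 gene; the fit was tested on simulated data. Each fold divides the higher population by the lower.

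The labels number the arrays 1 to 3 in each population. Same-numbered arrays deviated together (correlation across genes 0.42, 0.43 and 0.27), so the number was taken as a pairing, which comes from the data. Whether arrays stand for separate animals is not labelled, so p-values cover only the spread between these arrays, which may be technical. No 2 arrays held identical values.

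The members, lists and tests were chosen with earlier results of these data known, and the motifs, the array-by-array genes beyond the rule and the LK range of 1 after their values were seen. The rule gave array values for members past the threshold and the 3 largest differences not past it (Gstm5, Gstm1 and Srxn1), and of each wider list the 2 largest calls in each direction. Promoter windows run from 250 bases before to 50 after the start.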

Additional observations from a re-analysis of the deposited data

How the results depend on the processing

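Of 17 alternatives, 24 of 33 members kept their sign in every one that gave a value, and 8 of the 31 members not past the threshold passed in at least 1. The small number of arrays limits all counts, and dim genes are compressed. The count over all genes was 1225, and 2617 with the replicate block, 2606 with array weights, 25 with the 3' to 5' covariate, 537 without both arrays numbered 2, and 306 to 1269 on leaving out 1 array. Members higher in LSK numbered 2 with the replicate block, array weights or trend and robust variances, 0 with the covariate or without both arrays numbered 2, and 0 to 2 on leaving out 1 array. Members lower numbered 6 with the replicate block or array weights, 5 with the filter on dim genes, 4 with trend and robust variances, 0 with the mean of all probe sets, the probe set with the largest SD, probe sets without a suffix, the covariate or without both arrays numbered 2, and 0 to 3 on leaving out 1 array. Their median was -0.49 to -0.27 on leaving out 1 array. Wider genes higher numbered 14 with the block, 15 with array weights, 9 with renewed quantile, loess or trend and robust variances, 7 with averaged probe sets, 0 with the covariate and 1 to 7 on leaving out 1 array; those lower numbered 24, 27, 13 (dim filter or trend), 0 (covariate), 3 (without both arrays numbered 2) and 1 to 12. The block changed no other member's call. Reversed signs, none past the threshold, were Cat (-0.066 averaged, -0.15 with the largest SD or without a suffix, -0.039 to 0.074 on leaving out 1 array), Glrx3 (0.10 covariate, 0.0033 without arrays 2), Mgst1 (0.26 covariate), Mgst3 (0.017 array weights, 0.033 without arrays 2, -0.11 to 0.12 on leaving out 1 array), Prdx2 (0.074 averaged, 0.39 largest SD, -0.55 to 0.16 on leaving out 1 array) and Sod1 (-0.14 covariate, -7.65e-06 without arrays 2, -0.058 to 0.18 on leaving out 1 array), and, on leaving out 1 array, Keap1 (-0.091 to 0.21), Txn1 (-0.16 to 0.045) and Txnrd2 (-0.21 to 0.0048). The cause of these changes was not tested.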
